A study of Mus musculus with 12 samples.

Results

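The genes described here encode the proteins of the mitochondrial ribosome. A gene was a member where its symbol on the platform was Mrpl or Mrps followed by a number, and it was represented by the 1 probe set that names no other gene and has the highest mean signal over the 12 arrays. This gave 76 genes, 47 Mrpl and 29 Mrps, of 18193 genes named on the arrays. Mrpl30 and Mrpl53 were present only on probe sets shared with another gene and were left out. All 76 genes had a mean signal above the limit for testing, so no member was lost to a filter.

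The mitochondrial ribosome translates the few messenger RNAs of the mitochondrial genome, which encode core subunits of the respiratory chain and of ATP synthase. Its ribosomal RNAs are made inside the organelle, whereas all of its proteins are encoded in the nucleus, translated in the cytosol and imported. Some of these proteins have counterparts in the bacterial ribosome and others were added to the mitochondrial ribosome later in evolution. Hepatocytes are rich in mitochondria and depend on this supply for oxidative metabolism.

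Liver RNA of C57BL/6J mice was hybridised to Affymetrix Mouse Genome 430 2.0 arrays, 3 in each of 4 groups: LDC males, control males, LDC females and control females. LDC mice received 100 nM cadmium chloride in drinking water, through their dams from 1 week before mating and then directly until 30 weeks of age, when livers were taken. Control mice received drinking water without cadmium, and all mice were of the same age and strain. Each array is labelled as a biological replicate, but the litter and cage of each mouse are not known here, and p-values measure only the spread between these arrays. Values are MAS 5.0 signals, and differences are in log2 units with LDC minus control or male minus female. A difference was called at an adjusted p under 0.05 in a limma model over the 27022 probe sets tested, with Benjamini-Hochberg adjustment.

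Of the 76 genes, 26 belong to the small subunit and 49 to the large subunit, which include Mrps30 and Mrps18a despite their symbols. Mrps36 is now known chiefly as a subunit of the 2-oxoglutarate dehydrogenase complex and was placed in neither. Bacterial homologs were 45 of the genes, and 31 were specific to mitochondria. The genes are spread over the genome, with 11 on chromosome 11 and 8 on chromosome 17 as the fullest chromosomes.

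Promoters are shown first for some of the genes that the later results turn on, since several features were more frequent in members than elsewhere. RefSeq windows of 300 bases, 250 before and 50 from the start of the gene in GRCm38.p6, were found for 67 of the 76 genes and for 27025 genes in all. Capitals mark CCGGAAG, the core bound by ETS factors such as GABP, and GCGCATG, the core of the site of NRF1, on either strand. Both factors are known as activators of nuclear genes for mitochondrial proteins. Windows lie at chr8:71464676-71464975 (Mrpl34, plus strand), chr17:35916391-35916690 (Mrps18b, minus strand), chr11:58171414-58171713 (Mrpl22, plus strand), chr16:84735195-84735494 (Mrpl39, minus strand) and chr17:47368947-47369246 (Mrps10, plus strand).
Mrpl34: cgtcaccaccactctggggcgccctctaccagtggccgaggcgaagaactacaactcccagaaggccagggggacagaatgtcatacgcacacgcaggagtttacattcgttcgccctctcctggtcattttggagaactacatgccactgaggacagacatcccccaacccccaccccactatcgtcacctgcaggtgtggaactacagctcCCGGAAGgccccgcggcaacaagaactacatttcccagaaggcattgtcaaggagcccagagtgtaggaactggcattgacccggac
Mrps18b: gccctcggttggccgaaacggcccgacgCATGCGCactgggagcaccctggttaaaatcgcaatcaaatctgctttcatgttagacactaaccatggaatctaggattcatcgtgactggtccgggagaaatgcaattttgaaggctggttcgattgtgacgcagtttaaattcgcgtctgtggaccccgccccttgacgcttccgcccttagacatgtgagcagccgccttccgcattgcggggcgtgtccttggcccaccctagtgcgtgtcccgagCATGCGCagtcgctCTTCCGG
Mrpl22: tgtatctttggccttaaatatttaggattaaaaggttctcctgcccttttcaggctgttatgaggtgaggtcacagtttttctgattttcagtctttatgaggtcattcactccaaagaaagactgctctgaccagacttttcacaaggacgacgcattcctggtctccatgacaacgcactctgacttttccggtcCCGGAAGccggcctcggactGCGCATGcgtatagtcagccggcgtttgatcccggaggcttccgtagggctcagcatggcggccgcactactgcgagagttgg
Mrpl39: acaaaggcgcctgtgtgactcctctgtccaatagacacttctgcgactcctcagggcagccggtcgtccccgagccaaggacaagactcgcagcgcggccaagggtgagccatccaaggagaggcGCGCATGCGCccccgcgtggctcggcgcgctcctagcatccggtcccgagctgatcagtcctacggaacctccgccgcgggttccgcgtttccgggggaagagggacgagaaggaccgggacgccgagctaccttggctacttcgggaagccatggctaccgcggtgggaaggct
Mrps10: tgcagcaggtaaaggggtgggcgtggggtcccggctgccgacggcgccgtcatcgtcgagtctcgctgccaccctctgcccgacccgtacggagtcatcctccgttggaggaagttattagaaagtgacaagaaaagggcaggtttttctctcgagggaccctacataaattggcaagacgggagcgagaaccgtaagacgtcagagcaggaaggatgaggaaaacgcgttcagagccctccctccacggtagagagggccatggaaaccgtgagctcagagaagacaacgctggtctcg

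The ETS core lies in the windows of Mrpl34, Mrps18b and Mrpl22, the NRF1 core in those of Mrps18b, Mrpl22 and Mrpl39, and neither in that of Mrps10. Of windows not printed, those of Mrpl14 and Mrps31 hold neither core and that of Mrps22 holds the ETS core. Mrpl39 holds overlapping NRF1 cores, 1 on each strand. Over the members, CCGGAAG was present in 24 of 67 windows (35.8%, against 9.12% of all windows) and GCGCATG in 8 (11.9%, against 4.04%). AAGATGG, which YY1 can bind, was in 13 member windows (19.4%, against 6.48%), and the GC box GGGCGG in 34 (50.7%, against 35.9%). The E-box CACGTG and CCAAT were about as frequent as elsewhere, at 7.46% against 7.24% and 38.8% against 37.9%. The TATA box sequence TATAAA was in 4 member windows (5.97%, against 14.2%). The member windows had a median GC content of 58.3%, against 52.7%, and a median of 21 CG dinucleotides, against 7. All motifs were searched on both strands, and a match is a description of sequence, not a measured binding site.

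Mrpl34, whose transcript lies at chr8:71464926-71465753, sits between Abhd8 (chr8:71456700-71464707) and Dda1 (chr8:71469172-71476099). A gene on the opposite strand started within 1000 bases upstream, head to head, for 25 of 67 members (37.3%, against 12.4% of all genes). Only starts in the promoter set were searched, so a neighbour without a window there would be missed. No such start was found for Mrpl34, but the strand of the nearby Abhd8 was not read out, so a head-to-head neighbour is not excluded. Mrpl46 and Mrps11 are themselves such a pair, with starts 42 bases apart.

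**Figure D1:**
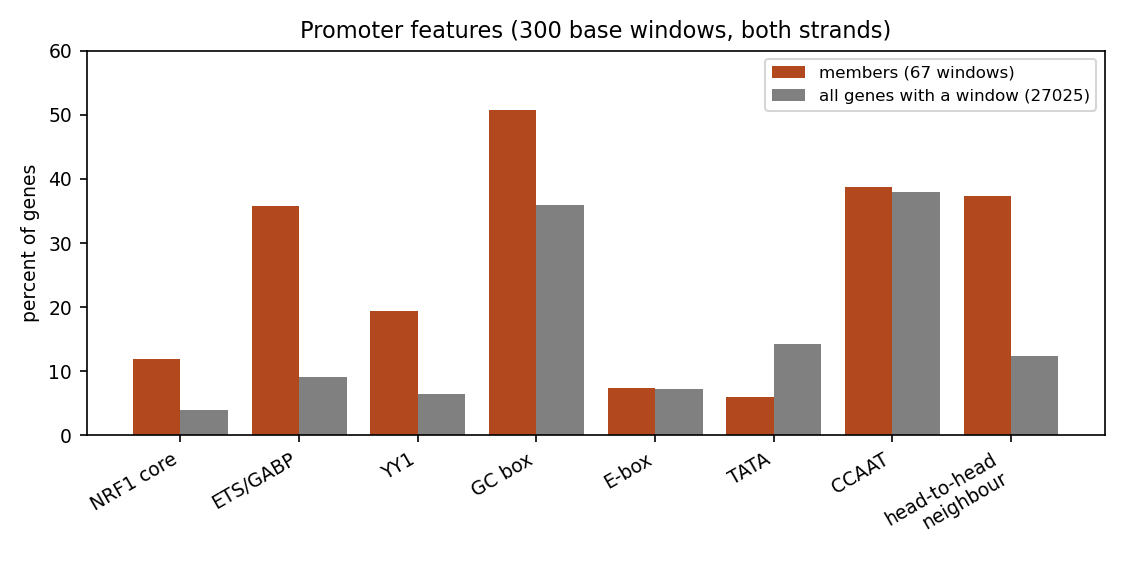
Percent of genes (y axis) whose 300 base promoter window holds each motif on either strand, or that have a head-to-head neighbour within 1000 bases (x axis), for the 67 members with a window and for all 27025 genes with one. The ETS/GABP core stands at 35.8% of members against 9.12% of all genes, and TATAAA at 5.97% against 14.2%.

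The 12 arrays were alike in overall signal, and the correlation of log2 signals between arrays of a group, over probe sets, was r = 0.914 to 0.941. Control female 2 resembled the LDC females (mean r = 0.937) more than the other control females (0.926). Hepatocyte markers were tested for 5 genes, none of which was called in LDC mice, and their summed signal ranged between 207108 and 262327 over the arrays. Kupffer cell markers summed to 12946 to 18469 in LDC males and 8439 to 8999 in control males, without overlap, and to 3702 to 21839 in LDC females and 10362 to 26892 in control females, with none of 5 called in LDC mice. Neutrophil markers also moved with the groups. Their summed signal was 5113 to 5356 in LDC males and 1518 to 2547 in control males, with 1 of 5 called higher, and 1169 to 2446 in LDC females and 5674 to 20618 in control females, with 3 of 5 called lower. Lymphocyte and plasma cell markers were called lower in LDC females for 3 of 3 tested, with sums of 729 to 1810 in LDC females and 4423 to 12204 in control females. The part of these cells in the values below was not tested. In bulk liver, fewer cells of a type and less RNA per cell cannot be told apart.

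The members had a narrow spread. The median within-group SD of the 76 genes was 0.13 on the log2 scale, between 0.06 for Mrps23 and 0.29 for Mrpl45. It was 0.34 over all probe sets tested and 0.25 over those at or above the 60th percentile of mean signal. Neither set was matched to the members in signal, so whether the narrow spread goes with their brightness was not tested. Control female 1 stood low, as the lowest array of its group for 49 of the 76 genes, and control female 2 stood high, as the highest for 47.

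**Figure D2:**
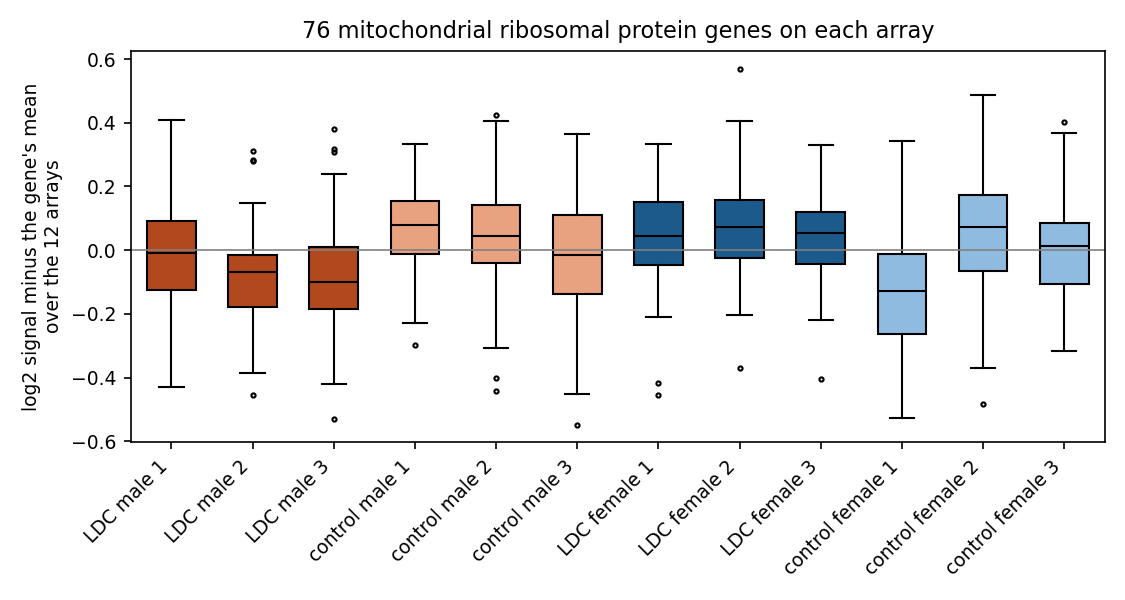
Log2 signal of the 76 genes on each array, minus each gene's mean over the 12 arrays (y axis), for the arrays of the 4 groups (x axis). Boxes span the quartiles, the line is the median, whiskers reach the farthest values within 1.5 times the box length and dots lie beyond. Control female 1 lies lowest of all arrays.

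The median member signal on an array was 1663, 1690 and 1799 in LDC males, against 1812, 1877 and 1882 in control males. It was 1781, 1816 and 1894 in LDC females, against 1449, 1669 and 1686 in control females. The LDC males thus lay below all control males and the LDC females above all control females, with the order of the groups reversed between the sexes. Between arrays of a group, the member median had a pooled SD of 0.07 on the log2 scale.

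No member was called in LDC males, where 0.278% of all probe sets tested were called, 0.159% higher and 0.118% lower. The members nevertheless lay mostly below 0, with a median difference of -0.09, against 0.00 over all probe sets, and 17 of 76 higher in LDC males (22.4%, against 50.1% of all probe sets). At an unadjusted p under 0.05, 7 members were lower (9.21%, against 5.08% of all probe sets) and 0 were higher (against 5.16%). All LDC arrays lay below all control arrays for 15 members (19.7%, against 7.92%) and above them for Mrpl9 and Mrps28 (2.63%, against 8.62%).

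Mrpl34, a small basic protein of the large subunit with a bacterial homolog, had signals of 1702, 1595 and 1612 in LDC males, against 2066, 2292 and 2261 in control males. The groups did not overlap, and the LDC arrays lay close together. The log2 difference was -0.43 (standard error 0.11, adjusted p = 0.138 from limma).

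Mrpl22, whose bacterial counterpart lines the tunnel through which the nascent chain leaves, had 1604, 1911 and 1640 in LDC males, against 2101, 2110 and 2367 in control males. Every LDC male was again below every control male, by a log2 difference of -0.35 (standard error 0.11, adjusted p = 0.248). Mrps10, a protein of the head of the small subunit, had 1658, 1663 and 1585 in LDC males, against 1896, 2170 and 2229 in control males. Its groups did not overlap either, and its difference was -0.36 (standard error 0.12, adjusted p = 0.320). Mrps7, in the same region of the small subunit, had 2461, 2499 and 2516 in LDC males, against 3070, 2885 and 2764 in control males (-0.22, adjusted p = 0.498).

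Mrps22 and Mrps31, both specific to mitochondria, showed the same arrangement of arrays. Mrps22, in which human mutations cause a respiratory chain deficiency, had a difference of -0.26 (standard error 0.11, adjusted p = 0.418), and Mrps31 one of -0.27 (standard error 0.12, adjusted p = 0.446). Mrpl9 and Mrps28 stood on the other side. Mrpl9 had 1912, 1857 and 2027 in LDC males, against 1754, 1779 and 1447 in control males, and differed by 0.22 (adjusted p = 0.581). Mrps28 differed by 0.13 (adjusted p = 0.768).

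No member was called in LDC females either, where 0.122% of all probe sets were called. The median difference was 0.07, against 0.01 over all probe sets, and 52 of 76 members were higher in LDC females (68.4%, against 50.7%). At an unadjusted p under 0.05, 4 members were higher (5.26%, against 4.69% of all probe sets) and 0 lower (against 4.33%), which is near the background. All LDC arrays lay above all control arrays for 9 members (11.8%, against 7.16%) and below them for Mrpl33 (1.32%, against 6.71%). Without control female 1 the female median was 0.00, and 40 of 76 members were higher in LDC females.

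Mrpl34 had signals of 2003, 2189 and 2085 in LDC females, against 1348, 1614 and 1494 in control females. Here the LDC arrays lay above the controls without overlap, the opposite of the males, by a log2 difference of 0.50 (standard error 0.11, adjusted p = 0.116). Mrps18b, 1 of 3 mammalian paralogs of the bacterial protein S18, had 1722, 1899 and 1895 in LDC females, against 1182, 1576 and 1281 in control females. Its groups did not overlap, and the difference was 0.46 (standard error 0.14, adjusted p = 0.290).

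The other S18 paralogs had smaller differences. Mrps18a, which sits in the large subunit, had 1511, 1583 and 1635 in LDC females, against 1150, 1501 and 1282 in control females, a difference of 0.27 (adjusted p = 0.565). Mrps18c had differences of -0.02 in females (adjusted p = 0.980) and -0.05 in males (adjusted p = 0.933). In males Mrps18a had -0.18 (adjusted p = 0.699) and Mrps18b -0.31 (adjusted p = 0.472).

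Mrpl44, a large subunit protein related to ribonuclease III, had 1842, 1888 and 1825 in LDC females, against 1458, 1803 and 1407 in control females. The nearest arrays of the groups were only a little apart, and the difference was 0.26 (standard error 0.12, adjusted p = 0.533). Mrps34, a mitochondria-specific protein of the small subunit, had 4135, 4816 and 4577 in LDC females, against 2993, 4168 and 3628 in control females, with overlap through control female 2 (0.34, adjusted p = 0.506). Mrpl14 (0.20, adjusted p = 0.587) and Mrps36 (0.17, adjusted p = 0.711) also lay above the controls on every array. Mrpl33 was the exception, with 753, 786 and 739 in LDC females, against 1041, 806 and 979 in control females (-0.30, adjusted p = 0.608).

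Members with well known roles were also read out, and none was called in either sex. Mrpl12, a stalk protein that in human cells also binds the mitochondrial RNA polymerase, differed by -0.07 in males (adjusted p = 0.910) and 0.11 in females (adjusted p = 0.869). Its partner at the stalk base, Mrpl10, differed by -0.15 (adjusted p = 0.738) and 0.06 (adjusted p = 0.925). Mrpl45, which holds the ribosome to the inner membrane, had -0.01 (adjusted p = 0.991) and 0.10 (adjusted p = 0.929), and Mrps12, a decoding site protein, -0.06 (adjusted p = 0.924) and 0.14 (adjusted p = 0.785). Mrpl41 had -0.21 (adjusted p = 0.610) and -0.02 (adjusted p = 0.983). Mrps27, which carries pentatricopeptide repeats, had -0.31 (adjusted p = 0.645) and 0.22 (adjusted p = 0.800).

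**Figure D3:**
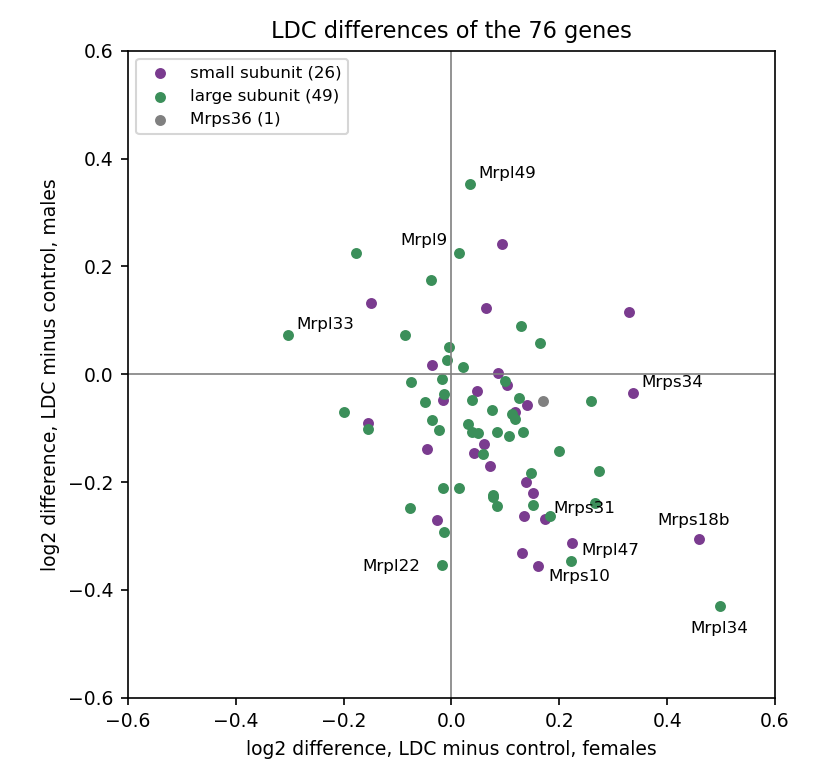
Log2 difference LDC minus control in males (y axis) against that in females (x axis) for the 76 genes, 1 point each, coloured by subunit. Most points lie at the lower right, with 43 genes lower in LDC males and higher in LDC females, and Mrpl34 lies farthest out at -0.43 and 0.50.

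Signs in the 2 sexes, which come from separate arrays, were opposite for most members. The members share these arrays and can shift together on an array, so counts of members are not counts of independent observations. Lower in LDC males and higher in LDC females were 43 of 76 genes (56.6%, against 25.8% of all probe sets tested). A further 16 were lower in both sexes, 9 higher in both and 8 higher in LDC males and lower in LDC females. The count of 43 ranged between 35, without control female 1, and 49, without control female 2, over the alternatives tried.

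**Figure D4:**
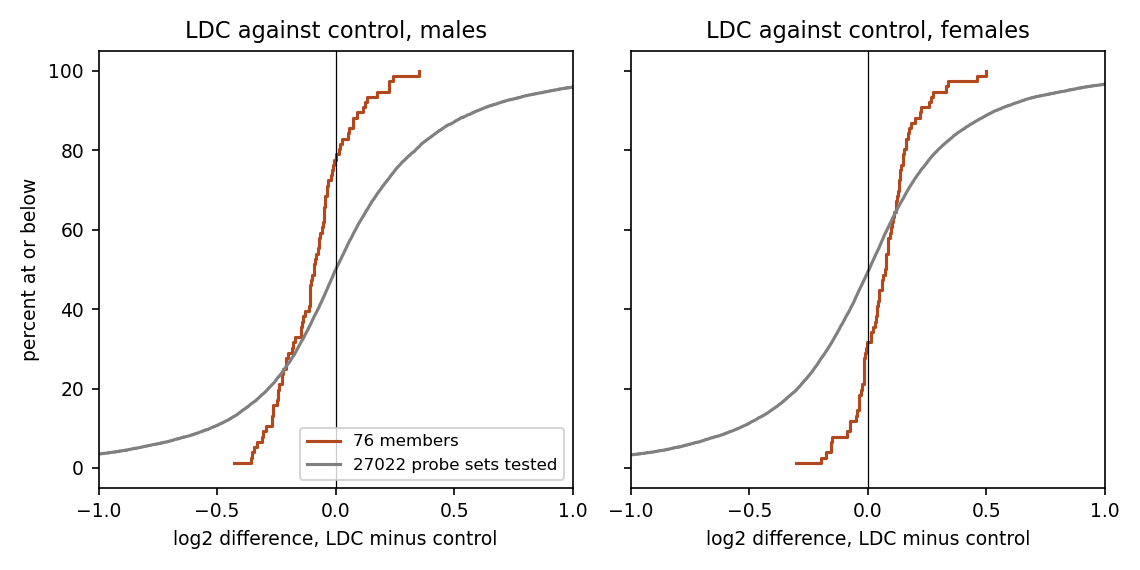
Percent of features (y axis) at or below each log2 difference LDC minus control (x axis), in males (left) and females (right), for the 76 members and the 27022 probe sets tested. The member curves are steeper than the curves of all probe sets, with medians of -0.09 in males and 0.07 in females.

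The LDC effects of the sexes differed for 1 member, Mrpl34, where 0.178% of all probe sets were called and 0.0518% were called with a negative difference. Its male effect minus its female effect was -0.93 (adjusted p = 0.0211, standard error 0.15, interaction contrast in limma). LDC males lay 0.43 below and LDC females 0.50 above their controls on the log2 scale. The call was lost with eBayes without a trend (adjusted p = 0.168) and with the mean of all probe sets of the gene, which gave -0.22 (adjusted p = 0.842). It was also lost without LDC male 1, 2 or 3, control male 2 or 3, or LDC female 2 or 3 (adjusted p = 0.0546 to 0.0911), with values between -0.96 and -0.89. A dimmer probe set of Mrpl34, with a mean signal of 110, gave a difference of 0.48 (standard error 0.66, adjusted p = 0.854), and its LDC males were spread between 65.0 and 264.

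Over all members the median difference between the sexes' effects was -0.19, against -0.01 over all probe sets, and 17 of 76 were positive (22.4%, against 49.5%). At an unadjusted p under 0.05, 12 members were negative (15.8%, against 4.91%) and 0 positive (against 5.34%). After Mrpl34 came Mrps18b with -0.76 (standard error 0.20, adjusted p = 0.176), Mrps10 with -0.52 (standard error 0.17, adjusted p = 0.330), Mrps31 with -0.44 (standard error 0.17, adjusted p = 0.384) and Mrpl47 with -0.57 (standard error 0.22, adjusted p = 0.388). On the positive side the smallest p belonged to Mrps28 (0.28, adjusted p = 0.599), followed by Mrpl33, Mrpl3, Mrpl49 and Mrpl9 (0.21 to 0.40, adjusted p = 0.606 to 0.733).

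The subunits had similar medians. In LDC males the small subunit had -0.11 and the large subunit -0.09, and in LDC females 0.10 and 0.04. The difference between the sexes' effects was -0.19 for the small and -0.16 for the large subunit. Bacterial homologs had -0.10 in males and 0.06 in females, and mitochondria-specific proteins -0.05 and 0.10.

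**Figure D5:**
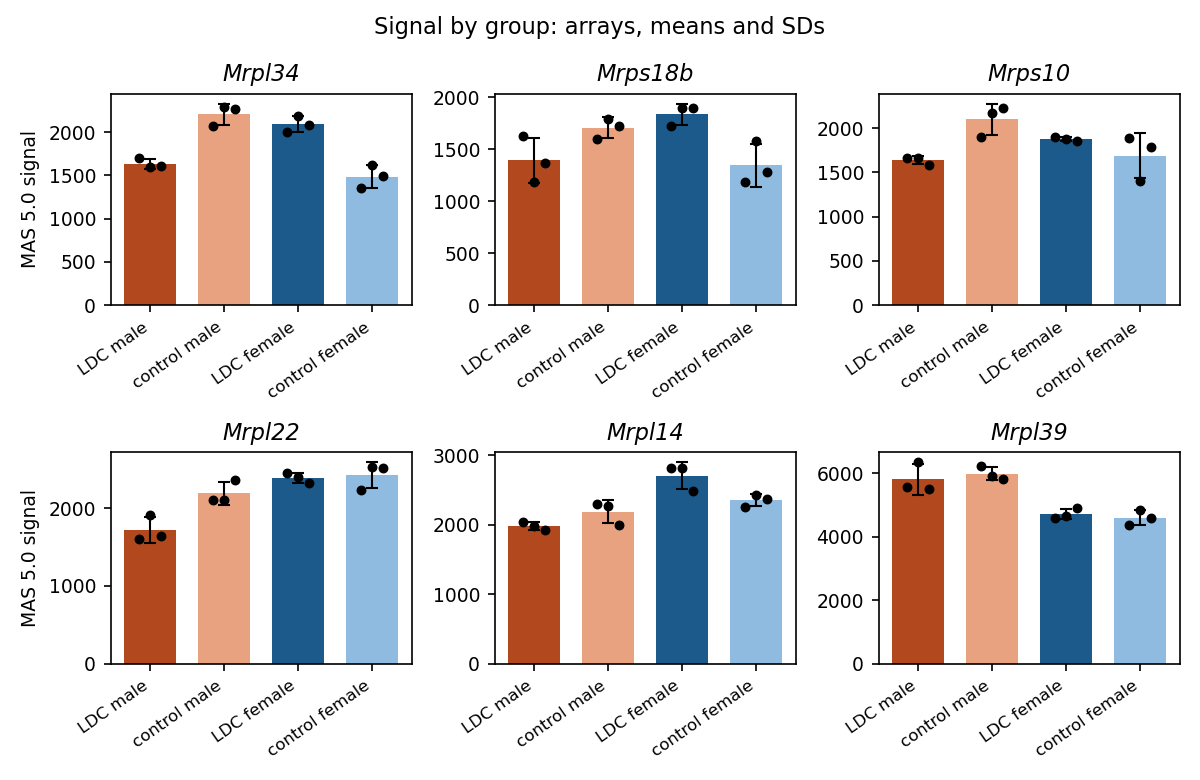
MAS 5.0 signal (y axis) of 6 members by group (x axis, 4 groups). Each point is an array, each bar a mean and each whisker an SD (n = 3 arrays). Mrpl34 is lower in LDC males than in control males and higher in LDC females than in control females, and Mrpl39 is higher in both male groups.

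The sexes were compared next within each exposure. In control mice 4 members were called (5.26%, against 7.73% of all probe sets), below the background. Control males were higher for Mrpl34, Mrpl39 and Mrpl20 (3.95%, against 3.59%) and lower for Mrpl52 (1.32%, against 4.14%). At an unadjusted p under 0.05, 13 members were higher (17.1%, against 9.89%) and 6 lower (7.89%, against 11.6%). The median male minus female difference over the members was 0.03, against -0.02 over all probe sets, with 42 positive (55.3%, against 48.5%). This median was -0.030 with median centring, -0.019 without control female 1 and 0.087 without control female 2.

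Mrpl34 was higher in control males by 0.57 (standard error 0.11, adjusted p = 0.00394), on the arrays given above and with no overlap. The call was lost with the mean of its probe sets (0.45, adjusted p = 0.250), with its dimmer probe set (0.32, adjusted p = 0.754) and with the methods' t-test (adjusted p = 0.163). Mrpl39, a mitochondria-specific protein related to threonyl-tRNA synthetase, had 6216, 5917 and 5830 in control males, against 4375, 4848 and 4576 in control females. Its male arrays were all higher, by 0.38 (standard error 0.09, adjusted p = 0.0158). That call was lost without control female 1 (adjusted p = 0.0549) and without control male 1 (0.0501), and with median centring, only the 6 arrays compared, eBayes without a trend, the methods' t-test or the next probe set (0.0692 to 0.222).

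Mrpl20, whose bacterial counterpart acts early in the assembly of the large subunit, had 2328, 2358 and 2319 in control males, against 1456, 1392 and 2181 in control females. Control female 3 was close to the males, and the difference of 0.51 (standard error 0.15, adjusted p = 0.0470) was still called in 1 of 12 fits with an array removed, the 1 without control female 3 (0.71, adjusted p = 0.00182). Mrpl52, specific to mitochondria, had 2571, 2365 and 2250 in control males, against 3273, 3249 and 2940 in control females. All its male arrays were lower, by a difference of -0.40 (standard error 0.10, adjusted p = 0.0259). It was no longer called without control female 1 or 2 or control male 2 or 3 (adjusted p = 0.0620 to 0.0921), nor with only the 6 arrays compared, eBayes without a trend, the methods' t-test or the next probe set (0.0939 to 0.193).

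In LDC mice 3 members were called (3.95%, against 6.29%). Mrpl22 and Mrpl14 were lower in LDC males (2.63%, against 3.29%) and Mrpl38 was higher (1.32%, against 3.0%). The median difference, -0.12 against -0.02 over all probe sets, lay below 0, with 21 members higher in LDC males (27.6%, against 47.7%). At an unadjusted p under 0.05, 19 members were lower (25%, against 10.6%) and 2 higher (2.63%, against 8.36%). All LDC males lay below all LDC females for 27 members (35.5%, against 14.4%). In control mice the corresponding count was 5 (6.58%, against 13.0%), and 15 lay above (19.7%, against 11.6%). These sex comparisons use the same arrays as the LDC comparisons above and are not independent of them.

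Mrpl22 had 1604, 1911 and 1640 in LDC males, against 2454, 2407 and 2326 in LDC females. The groups lay far apart, with a difference of -0.48 (standard error 0.11, adjusted p = 0.0135). Mrpl14, at the interface of the subunits, had 2041, 1978 and 1929 in LDC males, against 2817, 2823 and 2480 in LDC females (-0.45, standard error 0.10, adjusted p = 0.0147). The call of Mrpl22 was lost without LDC female 1 or LDC male 1 or 3 (adjusted p = 0.0536 to 0.0627), and that of Mrpl14 without LDC female 1 or 2 or LDC male 2 or 3 (0.0510 to 0.0690). Both were lost with eBayes without a trend (0.0608 and 0.0644) and with the methods' t-test (0.0964 and 0.0780).

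Mrpl38, which belongs to the family of phosphatidylethanolamine-binding proteins, had 1161, 905 and 1226 in LDC males, against 688, 839 and 712 in LDC females. LDC male 2 came nearest to the females, and the difference was 0.55 (standard error 0.14, adjusted p = 0.0351). It was lost without LDC female 1 or 3 or LDC male 1 or 3 (adjusted p = 0.109 to 0.147), and with median centring, only the 6 arrays compared, eBayes without a trend, the methods' t-test or the next probe set (0.0559 to 0.210). Mrpl39 was again above the females on every male array (0.30, adjusted p = 0.0604). For Mrpl34 the sign was turned relative to control mice, with LDC males lower by 0.35 (adjusted p = 0.0621).

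Where a gene had a further probe set, it did not always give the same sign. A second tested probe set was present for 37 of the 76 genes, and its sign matched that of the first for 22 genes in LDC males and 24 in LDC females. Its medians over these genes were -0.08 in LDC males and 0.06 in LDC females, against -0.09 and 0.04 for their first probe sets. In the difference both medians were -0.11. At an unadjusted p under 0.05, 2 second probe sets were higher and 1 lower in LDC males (all probe sets 5.16% and 5.08%). In LDC females 2 were higher and 0 lower (4.69% and 4.33%). In the difference 2 were positive and 1 negative (5.34% and 4.91%). Over all 76 first probe sets, 0 were higher and 7 lower in LDC males, and 0 were positive and 12 negative in the difference. These counts cover more genes and cannot be set directly against those of the second probe sets. Among the members so counted, only Mrpl34, Mrpl47, Mrps10 and Mrps31 have a further probe set. For Mrps15 a second probe set was called between control males and control females (-0.86, adjusted p = 0.0109), where the first was near 0 (-0.02). For Mrpl52 another probe set was called between LDC males and LDC females (-0.40, adjusted p = 0.0161), and its first stood at -0.24.

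Other genes of mitochondrial translation, and of mitochondrial biogenesis and stress response, were described from 7 lists. Of their 103 genes, 97 were tested. None was called in LDC males, in LDC females or in the difference. At an unadjusted p under 0.05, 0 of the 97 were higher and 8 lower in LDC males, against 5.16% and 5.08% of all probe sets, and 9 were higher and 1 lower in LDC females, against 4.69% and 4.33%. In the difference 3 were positive and 12 negative, against 5.34% and 4.91%. All 3 positive ones were in the list of biogenesis regulators. The translation factors, 17 tested, had medians of -0.10 in LDC males and 0.17 in LDC females. The 18 mitochondrial aminoacyl-tRNA synthetases had -0.10 and 0.14, and the 33 assembly and RNA modification factors -0.04 and 0.07.

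Ears2, the mitochondrial glutamyl-tRNA synthetase, had 201, 120 and 190 in LDC males, against 356, 358 and 347 in control males. In LDC females it had 304, 357 and 330, against 175, 302 and 167 in control females. The arrays did not overlap in either sex and ran in opposite directions, by -1.09 in males (standard error 0.27, adjusted p = 0.140) and 0.67 in females (adjusted p = 0.478), with a difference of -1.77 (standard error 0.38, adjusted p = 0.0948).

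Tsfm, the elongation factor that recharges the factor delivering tRNA, had -0.31 in LDC males (adjusted p = 0.532) and 0.53 in LDC females (adjusted p = 0.270). Gadd45gip1, also a protein of the large subunit but without an Mrpl symbol, had 1320, 1357 and 1366 in LDC males, against 1454, 1831 and 2017 in control males (-0.38, adjusted p = 0.354), and 0.07 in females (adjusted p = 0.919). The 3 tested proteins of the small subunit without an Mrps symbol, Dap3 among them, had medians of 0.04 in LDC males and 0.02 in LDC females.

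Regulators of mitochondrial biogenesis had medians of -0.02 in LDC males and -0.03 in LDC females over 16 genes. In the difference 7 of the 16 were positive, against 49.5% of all probe sets. At an unadjusted p under 0.05, 3 were positive and 0 negative, against 5.34% and 4.91% of all probe sets. The 3 were Ppargc1a (0.78, adjusted p = 0.340), Nrf1 (0.73, adjusted p = 0.484) and Gabpa (0.34, adjusted p = 0.439). Myc (-0.88, adjusted p = 0.732), Pprc1 (-0.46, adjusted p = 0.732) and Ssbp1 (-0.33, adjusted p = 0.532) were among the negative ones. Pprc1 was lower in LDC males, with a difference of -0.68 (adjusted p = 0.417). The 9 tested genes of the mitochondrial stress response had medians of 0.04 in LDC males and 0.13 in LDC females. Between the sexes, 8 of the 97 genes were called in control mice and 7 in LDC mice, near the 7.73% and 6.29% of all probe sets. Ppargc1b, a coactivator of mitochondrial biogenesis, was higher in males by 1.47 in control mice (adjusted p = 0.00160) and 1.35 in LDC mice (adjusted p = 0.00307). Its relative Ppargc1a was higher in LDC males by 1.16 (adjusted p = 0.00139), with 1015, 876 and 1237 in LDC males, against 514, 477 and 402 in LDC females.

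Lrpprc, which stabilises mitochondrial messenger RNA, was higher in control males by 0.55 (adjusted p = 0.00708), as were Letm1 of the inner membrane (0.70, adjusted p = 0.0198), the assembly factor Mterf3 (0.34, adjusted p = 0.0313), the chaperonin Hspe1 (0.40, adjusted p = 0.0250) and Myc (1.98, adjusted p = 0.0321). The Myc groups overlapped, with 259, 1062 and 1368 in control males, against 209, 93 and 317 in control females. Alternatives are given for members only, not for these list genes. Metap1d, a mitochondrial methionine aminopeptidase, was lower in control males, with a difference of -0.78 (adjusted p = 0.0273). Atf4, a transcription factor of the stress response, was lower in males in control mice (-0.83, adjusted p = 0.000710) and in LDC mice (-0.73, adjusted p = 0.00167). In LDC mice Ears2 (-0.99, adjusted p = 0.0423), Qrsl1 (-0.61, adjusted p = 0.0411), Ssbp1 (-0.48, adjusted p = 0.0268) and Atf5 (-0.79, adjusted p = 0.0170) were also lower in males.

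Proteins of the cytosolic ribosome, named Rpl or Rps and a number, were set beside the members. Their medians over 43 genes were -0.03 in LDC males, -0.09 in LDC females and 0.05 in the difference, with 0 called in each. Of the 43 genes, 11 were higher in LDC males, so they too lay mostly below 0 there. In LDC females 8 were higher, and in the difference 28 were positive. Subunits of oxidative phosphorylation, 75 genes, had -0.09 in LDC males, 0.13 in LDC females and -0.23 in the difference, with 0 called in each. Of the 75 subunits, 10 were higher in LDC males (50.1% of all probe sets were) and 67 in LDC females (50.7%), and in the difference 2 were positive (49.5%) and 23 were negative at an unadjusted p under 0.05 (4.91%). Whether these lists differ from the members was not tested.

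The head-to-head neighbours of the members were also read out. Of 25 neighbours 21 were tested, with medians of -0.14 in LDC males and 0.09 in LDC females and 0 called. The neighbours are not an outside set, since Mrpl46 and Mrps11 are members and Ndufb5, Sars2 and Twnk belong to lists above. Mrpl46 had 1065, 1256 and 1124 in LDC males, against 1443, 1481 and 1294 in control males, and its neighbour Mrps11 had 522, 480 and 612, against 735, 554 and 750. Their differences in LDC males were -0.29 for Mrpl46 (adjusted p = 0.500) and -0.33 for Mrps11 (adjusted p = 0.532), and Mrps11 overlapped through LDC male 3. In females the pair had -0.01 and 0.13.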

How the data were processed

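Liver RNA of 12 mice was measured on 12 arrays. The authors deposited linear signal intensities, made with the MAS 5.0 algorithm of GeneSpring 12.6.1, at a mean of 500.0 per array after trimming 2% at each end. The number of arrays limits the precision. Of 45101 probe sets, 64 controls were left out. Symbols came from the platform annotation of 2016, with 34958 probe sets naming 1 gene, 932 several and 9211 none, and 34754 were matched through the gene ID to a GRCm38.p6 gene table.

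Log2 signals were fitted in limma 3.58.1 (R 4.3.3) with 1 mean per group and trended eBayes moderation (8 residual and 6.35 prior degrees of freedom). The 27022 probe sets whose mean log2 signal reached the 40th percentile, 5.60, were tested, and p-values were adjusted over all of them. The code was tested on simulated data.

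Genes for naming were chosen by a rule. It took every member called, the 5 smallest p per direction in the difference and 11 members with known roles. It also took up to 6 members per direction and comparison with the smallest p whose groups do not overlap. From 7 further lists it took genes that were called or had the smallest p. Not all genes that met the rule are named in the results. Clpx, Fastkd5 and Rars2, for example, had some of the smallest p of their lists and were left out. Other members are named as examples. The members, lists and rule were chosen with earlier results of these data known. Lists and subunits came from general knowledge. No pairing of arrays by replicate number was detected, since 0 of 18 same-numbered pairs had deviations correlated above 0.1 (r = -0.0278 to 0.0589). A weak pairing, or one limited to some genes, would not be seen this way. Alternatives varied the filter, normalization, pseudocount (32), variance model, test, probe set, block and arrays. Plots were made in Python 3.11.15 with matplotlib 3.10.9.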

Additional observations from a re-analysis of the deposited data

Results flagged for a closer look

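The LDC effects of the sexes differed for Mrpl34 by -0.93 (male minus female, log2, adjusted p = 0.0211, standard error 0.15, interaction contrast in limma), with all 3 LDC males below the control males and all 3 LDC females above the control females. It was picked out because the difference itself passed the test. Its dimmer probe set gave 0.48 (adjusted p = 0.854), and the mean of its probe sets -0.22 (adjusted p = 0.842). The call was also lost with eBayes without a trend (adjusted p = 0.168) and in 7 of the 12 fits with 1 array removed (adjusted p = 0.0546 to 0.0911).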

How the results depend on the processing

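The counts of 0 called members in LDC males and in LDC females held in all 25 alternatives of each. The median difference of the members lay between -0.12 and -0.07 in LDC males and between 0.00 and 0.10 in LDC females when an array was left out. The single call in the difference between the LDC effects became 0 with eBayes without a trend, with the mean of all probe sets per gene and with the next brightest probe set, and was 0 to 1 without 1 array. Here and below, the next brightest probe set covers only the 37 genes with a second tested one. The median of the difference was -0.11 with that probe set, and also -0.11 with the first probe set of the same 37 genes. It was -0.22 to -0.095 without 1 array, and -0.095 is the value without control female 1.

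In control mice the calls between the sexes numbered 2 with median centring, 1 with only the 6 arrays compared, 1 with eBayes without a trend, 0 with the methods' t-test after adjustment, 1 with the next brightest probe set and 2 to 5 without 1 array. The control median of 0.03 turned to -0.030 with median centring (33 of 76 positive) and to -0.019 without control female 1 (36 positive). In LDC mice the calls numbered 6 with a 60th percentile filter, 8 with arrayWeights, 0 with eBayes without a trend, 1 with the next brightest probe set and 0 to 5 without 1 array. The LDC median was -0.20 with median centring.

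These signs turned where the probe set was changed. With the mean of all probe sets per gene, LDC females had -0.16 for Mrpl34 and 0.22 for Mrpl33, the difference was -0.16 for Mrpl49, and the sex comparisons gave -0.084 for Mrpl57 in control and 0.22 for Mrpl34 in LDC mice. With the next brightest probe set, LDC females had -0.81 for Mrpl34, -0.039 for Mrpl44 and 0.73 for Mrpl33. The difference was then 0.48 for Mrpl34, 0.14 for Mrpl47, -0.13 for Mrpl3 and -0.63 for Mrpl49. The sex comparisons gave -0.46 for Mrpl57 and -0.25 for Mrpl38 in control mice and 0.80 for Mrpl34 in LDC mice. The cause was not tested.

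No pairing of the arrays by replicate number was detected. With the replicate number as a block, the difference for Mrpl34 was -0.93 (adjusted p = 0.0371), and the counts of called members were 0 in LDC males, 0 in LDC females, 1 in the difference, 3 between the sexes in control mice and 2 in LDC mice.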
